A study of Mus musculus with 4 samples.

Results

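The 6 genes described here encode 3 Robo receptors (Robo1, Robo2 and Robo4) and 3 Slit ligands (Slit1, Slit2 and Slit3), out of 32285 genes counted in single cells of the embryonic mouse heart. They form a ligand and receptor family that was chosen by the level of Robo1, which had been seen to be higher in cardiomyocyte-like cells of both mutant libraries. Values of the mutant against the wild type in those cells are therefore given as a description without a test. Comparisons between the genotypes in cells other than cardiomyocytes were tested, and for Robo2, Slit2 and Slit3 those between kinds of cells as well. The genes of the family did not all have their highest level in the same cells of the heart. Among the 7 kinds of cells compared, Robo2 had its highest mean in cushion-like mesenchyme and Robo4 in endothelial cells. Slit2 had it in ventricular-like cardiomyocytes and Slit3 in cardiomyocytes outside the ventricular-like ones. For Robo2, Slit2 and Slit3 the libraries of these cells overlapped with those of other kinds, and Robo1 was found in all 7. In cells with both Cdh5 and Hapln1, which were none of the 7, Slit2 lay within the range of the ventricular-like cardiomyocytes.

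Slit proteins are large secreted ligands that bind the immunoglobulin domains of Robo receptors on neighboring cells. They are best known as repellents that steer axons at the midline of the nervous system, where the receptor acts on the actin cytoskeleton through srGAP proteins. In the heart the family is known for roles in the formation of the caval veins, the pericardium, the septa and the valves, and Robo4 is known as the endothelial member of the receptors.

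Hearts of C57BL/6J embryos were taken at E10.5 from wild-type mice (Wt) and from mice homozygous for the I383V substitution in Cyp51 (Ho), a knock-in made with CRISPR/Cas9 in the gene of a cholesterol synthesis enzyme. The sample labels name CRISPR/Cas9 for the wild-type libraries too. The substitution is present in every cell from conception, so it acts in the embryo as a whole and not in cardiomyocytes alone. There were 2 libraries per genotype, named Wt1, Wt2, Ho1 and Ho2, and no label says how many embryos or litters entered each, so the spread between libraries may be technical. A UMI is a molecular tag that counts 1 captured mRNA molecule, read here from its 3′ end. All levels are CPM, the UMIs of a gene per 1000000 UMIs of the same cells. Cyp51 itself, at chr5:4081145-4104746 (GRCm38, minus strand), was detected at 71.9, 61.9, 54.4 and 67.0 CPM in these libraries, in that order, a level that does not check a substitution.

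The deposited counts summed to 109893733 and 117034633 UMIs in the wild-type libraries Wt1 and Wt2 and to 127018819 and 107377100 in the mutant libraries Ho1 and Ho2. After filtering, 9384, 7409, 7038 and 6341 cells were used, 30172 in all. The libraries were not alike in other ways. Xist, the RNA of the inactive X chromosome, had 29200 UMIs in Ho1 against 5 in Wt1, 4 in Wt2 and 2 in Ho2, so that Ho1 alone held such RNA in number. Wt1 was the shallowest, with a median of 10690 UMIs per cell against 14310, 15700 and 15890. Between 12 and 29 cell barcodes were shared by any pair of libraries, and 107 occurred in more than 1.

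Cells were sorted in the data by 1 marker each. Tnnt2, a troponin of heart muscle, marked 9852 cells, of which 4994 were Myl2-high, 1770 held Shox2 and 1826 held Stard10 without Shox2. The remaining 1262 Tnnt2-gated cells stayed in the Tnnt2 gate alone. Cdh5 marked 578 cells, Hapln1 3359, Crabp1 3880 and Upk3b 243. The gates were checked with other markers. All 8 cardiomyocyte markers were raised at least 2 times in the Tnnt2 gate, 4 of 5 ventricular markers in the Myl2-high gate, 5 of 6 atrial markers in the Stard10 gate and 4 of 6 sinus venosus and pacemaker markers in the Shox2 gate. Of the atrial markers, 4 of 6 were also raised in the Shox2 gate and 2 of 6 in the Myl2-high gate. Nppa, the most abundant of them in the Stard10 gate, had a mean of 2750 CPM there and 2830 in the Myl2-high gate. All 8 endothelial markers were raised in the Cdh5 gate, 7 of 7 cushion markers in the Hapln1 gate and 6 of 6 epicardial markers in the Upk3b gate. All 8 markers of pharyngeal arch and neural crest mesenchyme were raised in the Crabp1 gate, but at low levels, the highest being Prrx1 at 56.1 CPM, and 3 of 4 epithelial and 5 of 5 blood markers were raised there as well. The pharyngeal and neural crest markers summed to 195, 81.1, 62.4 and 89.2 CPM in Wt1, Wt2, Ho1 and Ho2 in this gate and the epithelial ones, led by Krt18 at 167 CPM, to 200, 382, 43 and 248, more than the former in 3 of 4 libraries, so the gate is called by its gene alone. The blood markers summed to 4.77, 865, 16.7 and 8.05 CPM in Wt1, Wt2, Ho1 and Ho2 in that gate, so they were high in Wt2 alone. The Crabp1 gate held 2660 and 626 wild-type cells (Wt1 and Wt2) and 50 and 544 mutant cells (Ho1 and Ho2), so its Ho1 values rest on few cells. Cells with 2 or more UMIs of Cdh5 and also of Hapln1 numbered 4621 and lay outside both gates. They are given as a gate of their own, added after the data were seen.

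The 6 genes lie on 5 chromosomes in GRCm38 with the GENCODE M21 annotation. Robo1 spans 738 kb at chr16:72308306-73046095 on the plus strand, and Robo2 lies beside it at chr16:73891839-74411825 on the minus strand. Robo4 is short, 13.2 kb at chr9:37401897-37415115 (plus strand). Slit1 is at chr19:41600257-41743665 (minus), Slit2 at chr5:47983138-48307733 (plus) and Slit3 at chr11:35121224-35708507 (plus). Sequence before the start site of RefSeq was at hand for 5 of the 6 genes, and 2 of these windows are shown. Among the 7 gates, 1 is for the receptor highest in endothelial cells (Robo4) and 1 for the ligand highest in ventricular-like muscle (Slit2). Bases within exons annotated by GENCODE are left out, except for 30 bases of the Robo4 window that hold a motif. RefSeq places the Robo4 start further downstream than GENCODE, so this stretch precedes the start in one annotation and lies in an exon in the other. The sequences are from RefSeq on GRCm38.p6.
Slit2, chr5:47982905-47983137, plus strand: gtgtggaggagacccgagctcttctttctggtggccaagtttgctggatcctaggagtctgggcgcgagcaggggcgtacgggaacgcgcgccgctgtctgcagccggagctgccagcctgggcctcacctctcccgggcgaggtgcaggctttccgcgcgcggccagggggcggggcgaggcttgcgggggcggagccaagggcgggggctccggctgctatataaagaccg
Robo4, chr9:37401722-37401896, plus strand: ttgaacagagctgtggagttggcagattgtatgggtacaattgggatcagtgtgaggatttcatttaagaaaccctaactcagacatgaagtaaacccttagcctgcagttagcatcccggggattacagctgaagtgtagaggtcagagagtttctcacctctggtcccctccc
Robo4, chr9:37401911-37401940, plus strand: tgagggccaggcAGGAAGcatccgtttcct
The capitals in the last line mark AGGAAG, letters known from sites of ETS factors, a family that includes regulators of endothelial genes. It was the only match of this motif, searched on both strands, in the 250 bases before the Robo4 start. Of 27025 genes, 29.2% hold it in such a window. The motif of GATA factors was searched as AGATAA on both strands and is held by 10.3% of such windows. For T-box factors the letters were AGGTGT, held by 12% of windows. For the muscle factor NKX2-5 they were CAAGTG, held by 11.6%. Robo2, with 3 RefSeq starts, held 1 match of the GATA motif 186 bases before one of them and 1 of the ETS motif 77 bases before another. The window with the GATA match, chr16:75092771-75093020, lies outside the GENCODE span of Robo2 given above. The window with the ETS match, chr16:74411826-74412075, adjoins that span. None of the 4 motifs occurred before the starts of Robo1, Slit2 and Slit3, which says only that these letters are not in these windows. Of the 250 bases of the Slit3 window, 232 lie in exons annotated by GENCODE. The Robo1 window, chr16:72662899-72663148, lies within the GENCODE span of that gene, outside its exons. The windows differed in base composition, with 49.6% G and C for Robo4, 69.6% for Slit2 and 78.8% for Slit3 against a median of 52% over all genes.

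Robo1, the most widely expressed receptor, was found in every gate. Its level in the Hapln1 gate was 19.5 and 16.9 CPM in Wt1 and Wt2 and 20 and 16.4 CPM in Ho1 and Ho2. In the Crabp1 gate it was 15.8, 17.3, 12.5 and 13.7 CPM in the same order. These gates were the highest by mean, 18.2 ± 1.83 and 14.8 ± 2.14 CPM (SD, n = 4 libraries), and their ranges overlapped. In the Stard10 gate Robo1 was only 2.95, 3.34, 2.93 and 4.95 CPM, the lowest of the 7 gates, and in the Shox2 gate it was 4.10, 4.89, 5.62 and 7.19 CPM. The Cdh5 gate ranged widely, from 4.75 CPM in Ho1 to 22.9 in Ho2, and the Upk3b gate from 3.05 in Wt2 to 13.0 in Wt1, and these gates held 578 and 243 cells. Robo1 was not tested between the gates, because its cardiomyocyte values chose the family. Against the mean of the other 6 gates its log2 fold change was 0.97 in the Hapln1 gate, 0.73 in the Crabp1 gate, 0.77 in the Myl2-high gate, 0.47 in the Cdh5 gate, -0.60 in the Upk3b gate, -0.87 in the Shox2 gate and -1.47 in the Stard10 gate, given as a description. The Cdh5 value ran from 0.23 without Ho2 to 0.70 without Ho1, and the Upk3b value from -0.91 without Wt1 to -0.18 without Ho2.

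**Figure D1:**
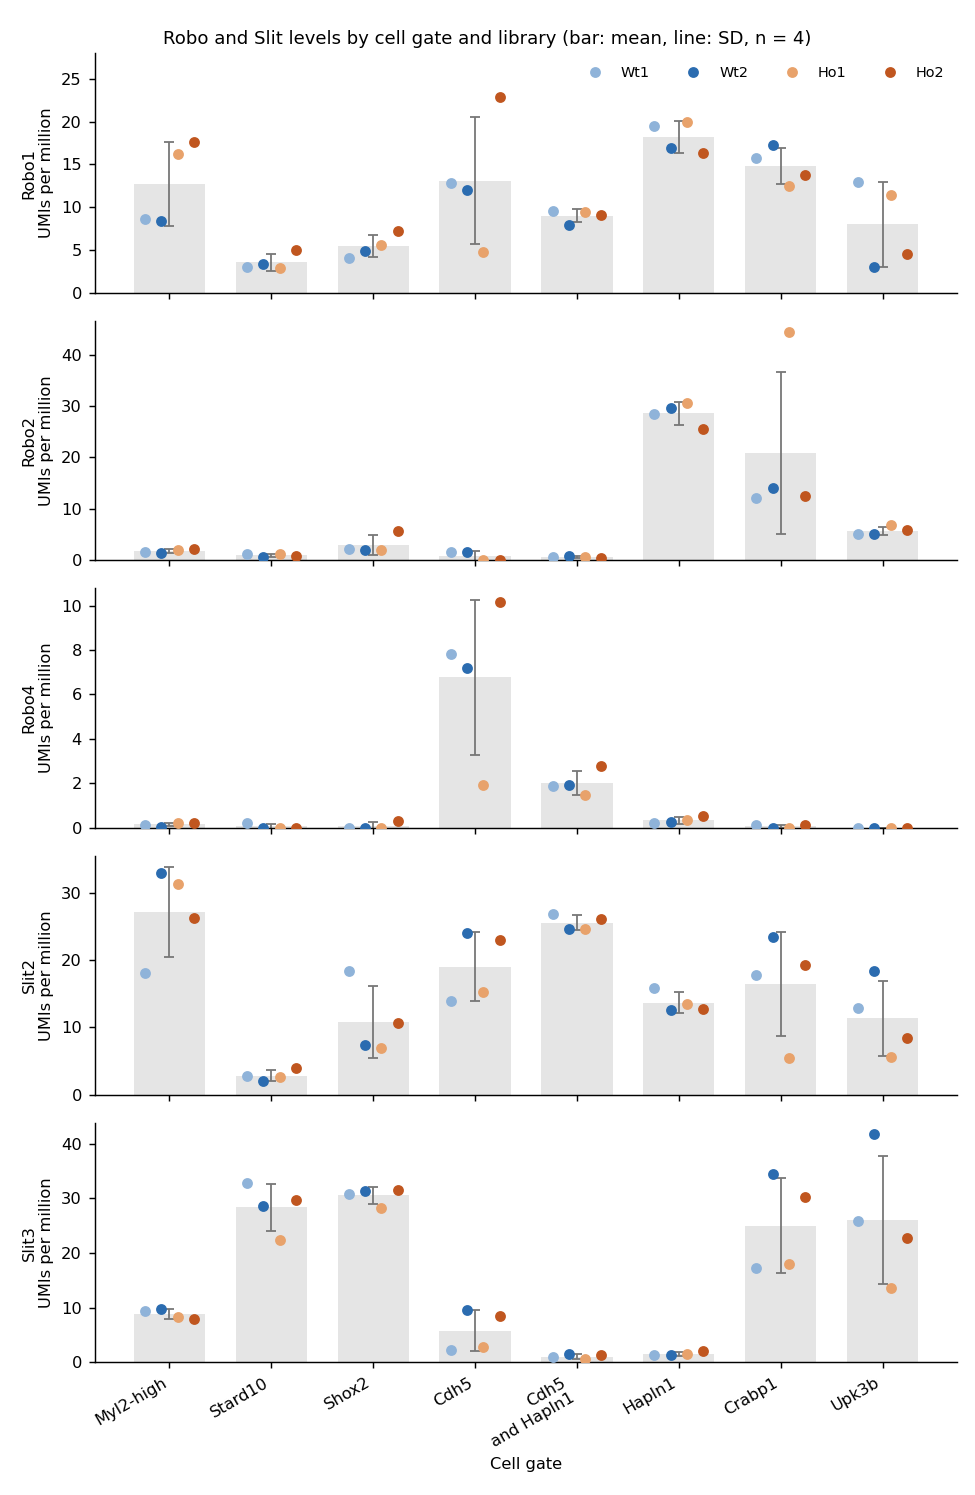
Level of 5 of the 6 genes (CPM, linear axes) in each cell gate, with 1 point per library, bars for the mean and lines for the SD over 4 libraries. Robo2 stands highest in the Hapln1 gate, Robo4 in the Cdh5 gate, Slit2 in the Myl2-high gate and Slit3 in the Shox2 and Stard10 gates, and Robo1 is spread over most gates. Slit1, with 58 UMIs in all, is not drawn.

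Within cardiomyocytes, the genotypes differed in Robo1, which is the pattern by which the family was chosen. In all Tnnt2-gated cells Robo1 was 5.96 CPM in Wt1 and 6.49 in Wt2 against 11.65 in Ho1 and 11.85 in Ho2. In the Myl2-high gate it was 8.58 and 8.38 CPM in the wild type and 16.2 and 17.7 in the mutant, from 73, 187, 527 and 342 UMIs. Both mutant libraries thus lay above both wild-type ones, with a log2 fold change of 0.97 in the Myl2-high gate and of 0.90 in the Tnnt2 gate, given without a test. In the Shox2 gate the libraries were also apart, from 4.10 and 4.89 to 5.62 and 7.19 CPM (log2 fold change 0.51), whereas in the Stard10 gate they overlapped, with 2.95 and 3.34 against 2.93 and 4.95 CPM (0.29, from -0.054 without Ho2 to 0.60 without Ho1). Of all genes in the fit, the same order, with the higher pair mutant, was found for 16.5% in the Tnnt2 gate, 23.8% in the Myl2-high gate, 17.1% in the Shox2 gate and 11.6% in the Stard10 gate. The libraries differ in how the Tnnt2 gate is made up, and when its 4 parts were weighted equally Robo1 was 5.50, 5.55, 8.91 and 9.63 CPM, a log2 ratio of 0.75. Whether the genotype difference itself differed among the parts was not tested.

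**Figure D2:**
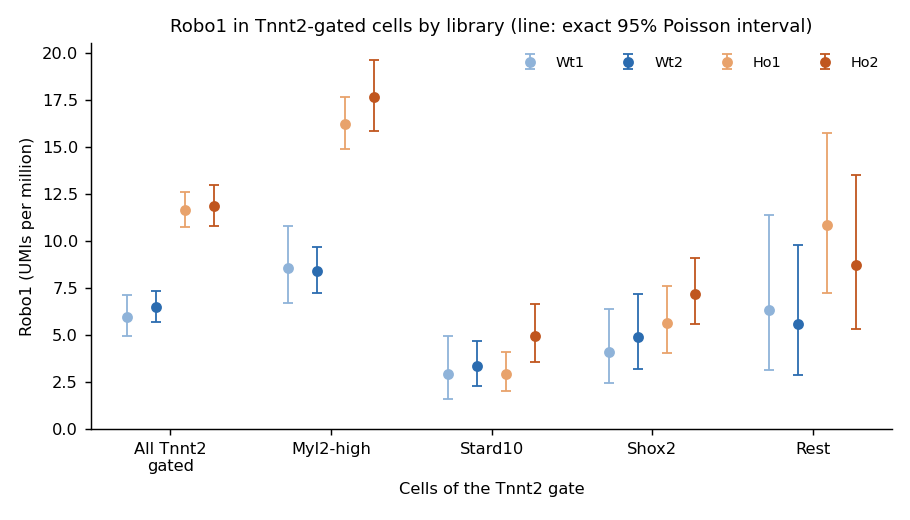
Robo1 level (CPM, linear axis) in all Tnnt2-gated cells and in their parts, with 1 point per library and the exact 95% Poisson interval, which covers counting error only. In the Myl2-high cells Wt1 and Wt2 lie at 8.58 and 8.38, and Ho1 and Ho2 at 16.2 and 17.7. In the Stard10 cells the genotypes overlap.

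Other measures of the Myl2-high cells are set beside these values. Their summed cardiomyocyte markers were alike, 48900, 48700, 47100 and 48400 CPM in Wt1, Wt2, Ho1 and Ho2. Of 18 cardiomyocyte, ventricular and atrial markers, 6 lay higher in both mutant libraries than in both wild-type ones, as Robo1 did (Irx4, Kcna5, Myh6, Nkx2-5, Nr2f1 and Tbx5), and 2 lay lower (Tnnc1 and Tnni1), against 23.8% and 15.4% of all genes. Among them, Tbx5 was 20.2, 28.3, 31.3 and 29.8 CPM and Myh6 was 1373, 1493, 1583 and 1780 CPM. The summed sinus venosus and pacemaker markers were 93.3, 75.2, 66.3 and 72.5 CPM, lower in both mutant libraries. The 5 blood markers summed to 4.35, 11.7, 259 and 12.0 CPM, with Hba-x the most abundant at a mean of 33 CPM, and were thus raised in Ho1 but not in Ho2. The 8 endothelial markers, none of them at 0, summed to 40.4, 37.8, 42.7 and 36.8 CPM, with Egfl7 leading. Cells of Wt1 were the shallowest there, with a median of 11010 UMIs against 18030, 18150 and 19880. The part of these differences in the Robo1 values was not tested.

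The share of cells with any Robo1 UMI depends on depth, so each cell was thinned to 2000 UMIs, which left out 157, 212, 156 and 70 shallower Myl2-high cells of Wt1, Wt2, Ho1 and Ho2. In the Myl2-high gate 2.72% of the Wt1 cells and 2.42% of the Wt2 cells then held Robo1, against 3.18% in Ho1 and 4.00% in Ho2. Without thinning the shares were 7.78%, 10.4%, 18.8% and 19.7%. Over the whole Tnnt2 gate the thinned shares were 1.40%, 1.30%, 2.18% and 2.23%, a ratio of Ho to Wt of 1.63, and 5.74%, 8.09%, 13.7% and 13.6% without thinning. As a background, 1 of 192 thinned blood cells held Robo1, or 0.521% with an exact 95% binomial interval of 0.0132% to 2.87%, and 4.06% of 197 did without thinning. In the Stard10 gate 0.174% of thinned cells held Robo1 (3 of 1726 cells), a share too low to set against that of blood cells, which rests on 1 cell. Thinned to 5000 UMIs, 18 of 1581 Stard10 cells (1.14%) and 0 of 184 blood cells held Robo1, a count that allows up to 1.63%. The level over all libraries was 3.55 CPM in the Stard10 gate (exact 95% Poisson interval 2.96 to 4.23) and 1.78 in blood cells (0.813 to 3.37).

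Robo2 was highest in the Hapln1 gate, followed by the Crabp1 gate. It stood in the Hapln1 gate at 28.5, 29.6, 30.7 and 25.5 CPM in Wt1, Wt2, Ho1 and Ho2. In the Crabp1 gate it was 12.2, 14.0, 44.4 and 12.6 CPM, where the high value of Ho1 came from 32 UMIs in 50 cells. The Upk3b gate followed with 5.18, 5.08, 6.83 and 5.83 CPM, and every other gate had a lower mean. In the 3 muscle gates, values ran from 0.689 CPM (Stard10 gate of Wt2) to 5.75 (Shox2 gate of Ho2), and the 3 other libraries of the Shox2 gate lay near 2 CPM. Only 7 UMIs of Robo2 were found in the Cdh5 gate, 3 in Wt1 and 4 in Wt2, and none in Ho1 or Ho2. A count of 0 allowed up to 2.85 and 2.55 CPM in those libraries. Each gate was tested against the mean of the other 6 with edgeR's quasi-likelihood test and Benjamini-Hochberg adjustment over all 14039 genes in the fit. Robo2 was higher in the Hapln1 gate by a log2 fold change of 3.21 ± 0.17 and in the Crabp1 gate by 2.10 ± 0.22 (SE; adjusted p = 3.87e-15 and 3.63e-09, edgeR). In the Shox2 gate it did not pass (-0.30, adjusted p = 0.441), but it was called lower there without Ho2 (-1.09, adjusted p = 0.0135) and in the wild-type libraries alone, a fit added after the data were seen (-0.95, adjusted p = 0.0147, edgeR). It was lower in the Stard10 gate (log2 fold change -2.23, adjusted p = 2.39e-05), in the Cdh5 gate (-2.23, adjusted p = 0.00442) and in the Myl2-high gate (-1.06, adjusted p = 0.00239, edgeR). Such calls were common, since 30% of all genes were called higher in the Hapln1 gate and 29.6% in the Crabp1 gate, and 25.7%, 23.5% and 27.9% were called lower in the Stard10, Cdh5 and Myl2-high gates. Without Wt2 the Myl2-high call was lost (log2 fold change -0.94, adjusted p = 0.066), and with markers counted from 1 UMI the Cdh5 call was lost (-0.73, adjusted p = 0.338). Thinned to 2000 UMIs, 5.07% of Hapln1-gated cells held Robo2 and none of 192 blood cells did, which allows up to 1.56%. Robo1 and Robo2 were seen together in 232 of 3359 Hapln1-gated cells.

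Robo4 was scarce and largely endothelial. Of 271 UMIs in all cells, 46 lay in the 578 cells of the Cdh5 gate and 162 in the 4621 cells with Cdh5 and Hapln1. In the Cdh5 gate the level was 7.82, 7.19, 1.90 and 10.2 CPM in Wt1, Wt2, Ho1 and Ho2, from 14, 18, 2 and 12 UMIs. In the cells with both markers it was 1.89, 1.90, 1.49 and 2.76 CPM. All other gates stayed under 0.6 CPM in every library, and in the Upk3b gate there was no UMI, which allows up to 0.718 CPM over the 4 libraries. Pooled over libraries, Robo4 in the Cdh5 gate was 47.9 times its level in the other 6 gates. This is given without a test, because among the 7 gates Robo4 passed the filter on low counts in the Cdh5 gate alone. Robo4 was also higher in the Cdh5 gate than in the cells with Cdh5 and Hapln1 in every library. The log2 fold change was 1.77 in a fit with the latter as an eighth gate, likewise given without a test. Without thinning 7.09% of Cdh5-gated cells held a Robo4 UMI, against 0.17% of Tnnt2-gated and 0.51% of blood cells, and after thinning 0.71% did.

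Slit2, the ligand with the most UMIs (7966), was highest in ventricular-like muscle among the 7 gates. In the Myl2-high gate it was 18.1, 33.0, 31.3 and 26.2 CPM in Wt1, Wt2, Ho1 and Ho2, with Wt1 apart from the rest. In the Stard10 gate it was 2.74, 2.07, 2.67 and 4.03 CPM, so no library of one gate came near those of the other. The cells with Cdh5 and Hapln1 had 26.8, 24.7, 24.6 and 26.1 CPM, within the range of the Myl2-high gate. The Shox2 gate showed 18.3 CPM in Wt1 and 7.34, 6.96 and 10.7 in the other libraries. Slit2 was higher in the Myl2-high gate by a log2 fold change of 1.63 ± 0.15 and lower in the Stard10 gate (-2.27 ± 0.26, SE), with adjusted p = 3.78e-10 and 2.1e-08 (edgeR), where 33.5% of all genes were called higher in the former gate. The Crabp1 gate was higher by 0.54 ± 0.19 (adjusted p = 0.0161), but not without Wt2 (0.48, adjusted p = 0.0854) or without Ho2 (0.51, adjusted p = 0.0927), nor with DESeq2 (0.40, adjusted p = 0.158) or in the wild type alone (0.60, adjusted p = 0.0557). The Cdh5, Shox2, Hapln1 and Upk3b gates did not pass (adjusted p = 0.0622, 0.356, 0.921 and 0.577, edgeR). When the cells with Cdh5 and Hapln1 entered as an eighth gate, Slit2 was higher in them by 0.98 ± 0.14 (adjusted p = 2.97e-07, edgeR). After thinning 4.68% of Myl2-high cells and 0.521% of Stard10 cells held Slit2, against 1.56% of blood cells (3 of 192). The level over all libraries was 2.84 CPM in the Stard10 gate and 3.95 in blood cells, so the former did not stand above the latter.

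**Figure D3:**
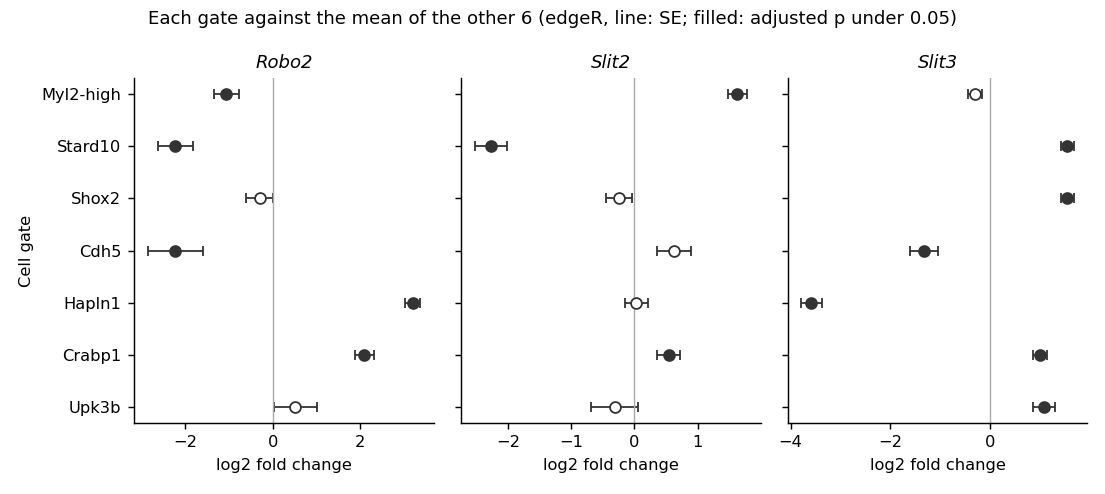
Log2 fold change of each gate against the mean of the other 6 for Robo2, Slit2 and Slit3, with the SE from edgeR (28 sums, 4 libraries in 7 gates). Filled points have an adjusted p under 0.05. Slit2 and Slit3 lie on opposite sides in the Stard10 gate, at -2.27 and 1.56. Robo1 and Robo4 were not tested between the gates and are not drawn.

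Slit3 was high in all Tnnt2-gated cells but the Myl2-high ones. In the Shox2 gate it was 30.9, 31.4, 28.2 and 31.5 CPM in Wt1, Wt2, Ho1 and Ho2, and in the Stard10 gate 32.7, 28.6, 22.4 and 29.7. The 1262 Tnnt2-gated cells in none of the parts had 34.7, 37.8, 14.8 and 38.5 CPM, above both of those gates in 3 of 4 libraries, and did not enter the tests between gates. These levels overlapped each other and those of the Upk3b gate, 25.9, 41.7, 13.7 and 22.7 CPM, and of the Crabp1 gate, 17.2, 34.5, 18.0 and 30.2. The Myl2-high gate was lower in every library, with 9.40, 9.82, 8.21 and 7.95 CPM. Of the 7 gates, the Hapln1 gate was the lowest, with 1.38, 1.43, 1.47 and 2.14. The cells with Cdh5 and Hapln1 also had little, between 0.531 and 1.50 CPM. Slit3 was higher in the Stard10 and Shox2 gates by the same log2 fold change of 1.56, with an SE of 0.13 in both and adjusted p = 2.11e-11 and 4.78e-11 (edgeR). It was also higher in the Upk3b gate (1.09 ± 0.22, adjusted p = 0.000336) and in the Crabp1 gate (1.00 ± 0.14, adjusted p = 4.58e-07). It was lower in the Hapln1 gate (-3.58 ± 0.20, adjusted p = 1.47e-14) and in the Cdh5 gate (-1.32 ± 0.27, adjusted p = 0.000226, edgeR). The Myl2-high gate did not pass (-0.30 ± 0.14, adjusted p = 0.0613), and its value was 0.23 when the cells with Cdh5 and Hapln1 entered as an eighth gate (adjusted p = 0.132, edgeR). The shares of all genes called higher were 29.8% in the Stard10 gate, 30.3% in the Shox2 gate and 16% in the Upk3b gate, and 23.9% were called lower in the Hapln1 gate. In the Cdh5 gate Wt2 and Ho2, at 9.59 and 8.49 CPM, stood above Wt1 and Ho1, at 2.24 and 2.85. After thinning 5.39% of Stard10 cells, 6.42% of Shox2 cells and 0.212% of Hapln1 cells held Slit3, while none of 192 blood cells did.

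Slit1, the third ligand and known mainly from the nervous system, was near absent. It had 58 UMIs in all, 49 of them in Wt1, and did not pass the filter on low counts in any fit. In the 7 gates it had 17 UMIs, of which 14 lay in the Crabp1 gate of Wt1. In the Stard10, Cdh5 and Upk3b gates there was none, which allows up to 0.46 CPM over the 4 libraries of the Cdh5 gate and 0.718 in the Upk3b gate. Of the 6 genes, Robo1, Slit2 and Slit3 passed the filter in all 10 fits, Robo2 in 8 and Robo4 in 3.

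Between the genotypes, none of the genes passed in any gate outside the Tnnt2 gate where its counts allowed a test. Slit1 could be tested in none of these gates, and cells in no gate were not tested. This comparison asks whether the mutation moved the family in the cells of the Cdh5, Hapln1, Crabp1 and Upk3b gates. In the Hapln1 gate, the best measured, the log2 fold change of Ho against Wt was 0.03 ± 0.15 for Robo1, -0.02 ± 0.12 for Robo2, -0.09 ± 0.16 for Slit2 and 0.34 ± 0.36 for Slit3 (SE; adjusted p from 0.963 to 0.987, edgeR). The 2 libraries of each genotype overlapped for all of these but Slit3, whose Ho values of 1.47 and 2.14 CPM lay above the Wt values of 1.38 and 1.43, as they did for 14.9% of all genes there. Without Ho2 the Slit3 value was 0.096. In the cells with Cdh5 and Hapln1, Robo1 differed by 0.14 ± 0.14, Robo2 by -0.41 ± 0.40, Robo4 by 0.14 ± 0.32, Slit2 by 0.01 ± 0.11 and Slit3 by -0.57 ± 0.43 (SE; adjusted p from 0.94 to 0.998, edgeR). Of these, Robo2 alone did not overlap, with 0.655 and 0.831 CPM in Wt1 and Wt2 against 0.602 and 0.480 in Ho1 and Ho2. That order was found for 23.5% of all genes in these cells. Over all genes 4 of 12613 were called in the Hapln1 gate (0.0317%) and 6 of 13300 in the cells with Cdh5 and Hapln1 (0.0451%). In the Cdh5, Crabp1 and Upk3b gates 0% of 8824, 12346 and 7398 genes were called by edgeR, and 201, 166 and 324 genes had an unadjusted p under 0.05. DESeq2 called 0 genes in the Cdh5 gate, 0 in the Crabp1 gate and 3 in the Upk3b gate.

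The other gates were less precise. In the Cdh5 gate the log2 fold changes were 0.23 ± 0.56 for Robo1, -0.22 ± 0.63 for Robo4, 0.03 ± 0.35 for Slit2 and -0.07 ± 0.76 for Slit3 (SE, adjusted p = 1 for each, edgeR). In the Crabp1 gate Robo2 differed by 0.87 ± 0.56 (adjusted p = 1, edgeR), and without Ho1, which had 50 cells there, by -0.05. Robo1 in the Crabp1 gate was lower in both mutant libraries, with 15.8 and 17.3 CPM in Wt1 and Wt2 against 12.5 and 13.7 in Ho1 and Ho2, a log2 fold change of -0.30 ± 0.26 (SE; adjusted p = 1, edgeR). That order was found for 15% of all genes there. Slit2 differed by -0.43 ± 0.42 in that gate, and by -0.077 without Ho1, and Slit3 by 0.05 ± 0.38 (SE; adjusted p = 1 for both, edgeR). In the Upk3b gate both ligands were lower in the mutant libraries. Slit2 was 13.0 and 18.3 CPM in Wt1 and Wt2 against 5.69 and 8.42 in Ho1 and Ho2, a log2 fold change of -1.07 ± 0.47, and Slit3 was 25.9 and 41.7 against 13.7 and 22.7 CPM, a change of -0.83 ± 0.35 (SE). The libraries of the genotypes did not overlap for either ligand, as for 19% of all genes in that gate in this direction, and neither passed (unadjusted p = 0.0413 and 0.0325, adjusted p = 0.998 for both, edgeR). These values rest on 46 UMIs of Slit2 and 108 of Slit3, and without Wt2 the Slit3 change was -0.45. Marker sums of other cells were also apart in this gate. In Wt1, Wt2, Ho1 and Ho2 the cardiomyocyte markers summed to 2660, 2900, 4250 and 2990 CPM, the atrial ones to 51.8, 110, 145 and 159, and the cushion ones to 404, 352, 336 and 257, while the macrophage markers were at 69.4 CPM in Ho1 and between 0.648 and 2.03 in the other libraries. The first 2 sums were thus higher in both mutant libraries, as 13.1% of all genes were there, and the cushion sum was lower. Their part in the Slit2 and Slit3 values was not tested. In the Tnnt2 gate, again without a test, Slit2 overlapped between the genotypes (log2 fold change 0.11), as did Slit3 (-0.27), and Robo2 was higher in both mutant libraries (0.68), with 1.68 and 1.35 against 1.96 and 2.87 CPM in Wt1, Wt2, Ho1 and Ho2, an order found for 16.5% of all genes there. In the Stard10 and Shox2 gates the genotypes overlapped for Robo2. In the Myl2-high gate Robo2 was 1.65 and 1.39 CPM in the wild type against 2.00 and 2.12 in the mutant, without overlap, as was the case for 23.8% of all genes. The log2 fold change was 0.45, from 0.27 without Wt2 to 0.55 without Wt1. Slit3 was lower in both mutant libraries there, 9.40 and 9.82 against 8.21 and 7.95 CPM (-0.28), an order found for 15.4% of all genes. Leaving out 1 library moved the values in the whole Tnnt2 gate from -0.14 (without Wt1) to 0.48 (without Wt2) for Slit2, from -0.46 (without Ho2) to -0.088 (without Ho1) for Slit3, and from 0.45 (without Ho2) to 0.89 (without Ho1) for Robo2.

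**Figure D4:**
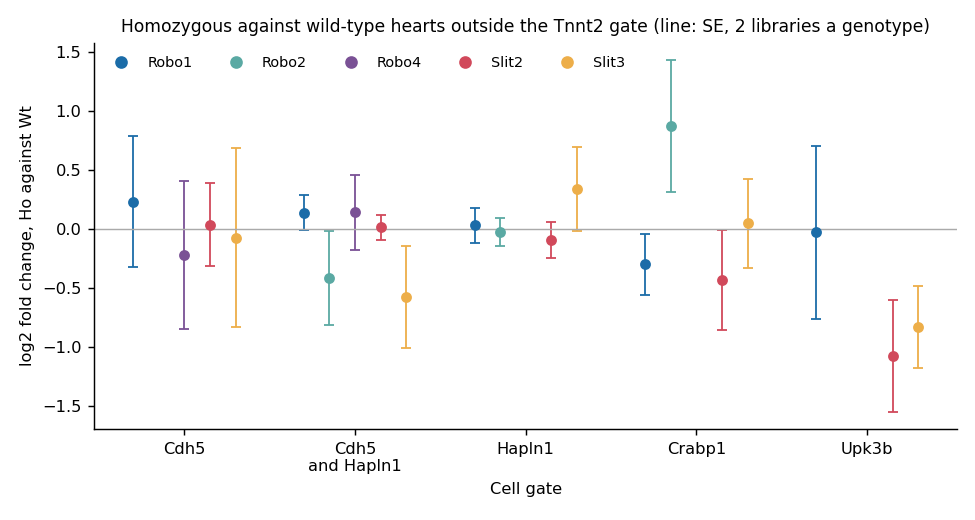
Log2 fold change of Ho against Wt with its SE (edgeR, 2 libraries per genotype) in 5 gates of cells other than cardiomyocytes. A gene is drawn where it passed the filter on low counts. No point has an adjusted p under 0.05. The SE is small in the Hapln1 gate, such as 0.15 for Robo1, and large in the Cdh5 gate, such as 0.56.

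Of 39 other genes of the pathway, listed as receptors, co-receptors, adaptors, GTPases and regulators of the cytoskeleton together with the neighboring netrin and Cxcl12 systems, 33 passed the filter on low counts in the sums of at least 4 of the 7 gates, a limit set after the data were seen so that no gene was tested only through the gates where it is high. Of these, 16 were higher and 7 lower in the Hapln1 gate, with a median log2 fold change of 0.16 against 0.02 over all genes, where 30% of all genes were called higher and 23.9% lower. In the Cdh5 gate 10 were higher and 11 lower, against 22.8% and 23.5% of all genes. The Myl2-high gate had 8 higher and 10 lower (33.5% and 27.9% of all genes), the Shox2 gate 9 and 7 (30.3% and 22%) and the Stard10 gate 7 and 14 (29.8% and 25.7%). The Crabp1 gate had 10 higher and 7 lower (29.6% and 25%), and the Upk3b gate 7 and 8 (16% and 16.2%). The medians over these genes lay between -0.071 in the Stard10 gate and 0.16 in the Hapln1 gate. The values over all genes also count genes that passed the filter in under 4 of the 7 gates, so the sets are unlike. Between the genotypes, 0 of the list was called in any of the 5 tested gates, in which 24 to 34 of the 39 could be tested.

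Among them, the 3 genes with the largest change were taken in each gate where a Robo or Slit gene was highest. In the Myl2-high gate, where Slit2 led, these were Ntn1, which encodes the guidance ligand netrin, Cap2, an actin regulator of striated muscle (log2 fold change 3.49 ± 0.08), and Srgap1, a GTPase-activating protein bound by Robo receptors, which was lower (-1.70 ± 0.15, SE). Ntn1 was 12.6, 23.4, 23.5 and 20.9 CPM in Wt1, Wt2, Ho1 and Ho2, and like Slit2 it was lowest in Wt1. Among the 7 gates it passed the filter in the 3 muscle gates alone, and it is given without a test. Srgap1 was 2.59, 3.27, 3.08 and 5.42 CPM there, while it was 38.0, 53.9, 33.3 and 58.5 in the Cdh5 gate. In the Shox2 gate, where Slit3 led, Cap2 was higher (2.99 ± 0.09, SE), Ntn1 was at 6.26, 6.02, 7.09 and 5.44 CPM, and Cxcr4, the receptor of the chemokine Cxcl12, had at most 0.216 CPM in any library, given without a test.

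In the Hapln1 gate, where Robo1 and Robo2 led, Cxcr4 was at 4.05, 5.23, 6.95 and 5.04 CPM. This is again without a test, because among the 7 gates Cxcr4 passed the filter in that gate alone. Cap2 was lower there (-2.87 ± 0.19, SE) and Ntn1 had at most 0.281 CPM in any library. In the Cdh5 gate, where Robo4 led, Cap2 was lower (-3.28 ± 0.28), as was Flrt3, a membrane protein known to bind Robo1 (-2.91 ± 0.41). Srgap3, another Robo-binding GTPase-activating protein, had no UMI there in any library. In the Crabp1 gate, which among the 7 gates held the most UMIs of Slit1, Cxcl12 was higher (3.72 ± 0.17, SE) and Ntn1 had at most 0.627 CPM. Srgap3, which among the 7 gates passed the filter in that gate alone, was at 1.73, 1.88, 2.78 and 1.78 CPM there. Each change given with an SE passed (adjusted p from 1.96e-23 for Cap2 in the Myl2-high gate to 8.58e-07 for Flrt3 in the Cdh5 gate, edgeR).

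Genes with the most similar pattern were sought over the 28 sums of 7 gates and 4 libraries, which share their libraries and depth, by the correlation of log2 CPM. Robo4 went with Fam124b, Clec1a, 9230102K24Rik, Cyp26a1 and Tmem255b (Pearson's r from 0.947 to 0.958). These values for Robo4 rest on the Cdh5 sums, as the other 6 gates held 36 of its UMIs. They are therefore not set against those of the other genes. Robo2 went with Inhba, an activin subunit, and with Ptx3, Pcolce2, Fip1l1 and Mfsd2a (0.873 to 0.903). Slit3 went with Lama5, a laminin chain, and with Gm12122, Pawr, Amph and Adgrb2 (0.83 to 0.867). Compared with Robo2 and Slit3, the likeness was lower for Slit2, with Rxra, Hpcal1, Prdm16, Qdpr and Ndufa4l2 (0.753 to 0.796). It was also lower for Robo1, with Rnf4, Ptprg, Rybp, Dnajc14 and Gm36033 (0.734 to 0.781). Among the family itself, the highest value was 0.58 for Robo1 with Slit2, and the lowest was -0.59 for Robo1 with Slit3.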

How the data were processed

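Single-cell libraries (10x Genomics 3′ v3.1) of E10.5 hearts were aligned by the authors to mm10 with Cell Ranger 6.1.1, and raw UMI counts per gene and barcode were deposited, unfiltered beyond cell calling. Their downstream analysis used Seurat 4.1.0 and was not used here. Groups follow the genotype and number in the labels. The filters kept barcodes of 500 to 50000 UMIs, 500 to 6000 genes and a mitochondrial share of up to 20%, and Scrublet (scanpy 1.11.5) then took out 1.84% to 5.15% of each library as doublets.

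Tnnt2 and Myl2 were cut by Otsu's method on log2(1 + UMIs per 10000), at 5.64 and 7.69 UMIs per 10000, with 1061 of 30172 and 481 of 9852 cells within 1.5-fold of the cut. Cdh5, Hapln1, Crabp1 and Upk3b needed 2 UMIs. Cells positive for several of the 5 markers (22.4%) or for none (18.3%) entered no gate. UMI counts were summed per library and gate and tested with edgeR 4.0.16 (quasi-likelihood, TMM, filterByExpr, Benjamini-Hochberg at 0.05), between gates with the library as a block (not for Robo1, nor for genes that passed the filter in under 4 of the 7 gates) and between genotypes in a separate fit for each gate. DESeq2 1.42.0 was an alternative. The tests were checked on simulated data.

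Shares have exact binomial and levels exact Poisson 95% intervals, a count of 0 was given a limit of 3 counts, and all of these cover counting error only. Blood cells, the background for shares, had 3 UMIs of 5 immune genes or 10% of their UMIs from 3 embryonic globins. They were taken from all cells used, whatever their gate, so they can overlap with the gates. Promoter windows are 250 bases of RefSeq on GRCm38.p6. Replicate numbers were not used to pair the samples in the main fits. The genes, gates and lists were chosen with earlier results of these data known. The genes named were the 6 members, the 3 pathway genes with the largest change in each gate a member led, and the 5 genes most like each member with 50 UMIs or more.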

Additional observations from a re-analysis of the deposited data

Results flagged for a closer look

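Slit1 was seen mostly outside the gates. Cells with none of the 5 gating genes held 37 of its 58 UMIs, at 0.797 CPM over the 4 libraries, against 0.286 CPM in the Crabp1 gate, the highest of the 7 gates, and against a limit of 0.0646 CPM that a count of 0 would allow. Of those 37 UMIs, 33 lay in 31 cells of Wt1 (1.85 CPM), 2 in Wt2 (0.205 CPM), 2 in Ho2 (0.134 CPM) and 0 in Ho1. The value was noted because it comes from cells that no comparison used. It rests on 1 library, and the same library held 14 Slit1 UMIs in its Crabp1 gate where the other 3 held 0.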

How the results depend on the processing

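Of 21 contrasts of Robo2, Slit2 and Slit3 between gates, 14 were called (66.7%, against 50.9% over all genes). The latter share also counts genes that passed the filter in under 4 of the 7 gates, so these shares are over unlike sets. Under the alternatives, 12 to 17 of the 21 contrasts were called. No gene of the family was called between genotypes in the Cdh5, Hapln1, Crabp1 or Upk3b gates under any of them. Calls lost were Slit2 in the Crabp1 gate in the wild-type libraries alone, a fit chosen after seeing the data, Robo2 in the Myl2-high gate without Wt2, Robo2 in the Cdh5 gate with markers from 1 UMI (-0.73), and Slit2 in the Crabp1 gate also with sums thinned to the smallest library, with DESeq2, without Wt2 and without Ho2. Calls gained were Slit2 in the Cdh5 gate under 7 alternatives, Slit3 lower in the Myl2-high gate under 6, Robo2 lower in the Shox2 gate under 2 and Slit2 lower in the Shox2 gate without Wt1. The log2 ratio of Robo1 in the Tnnt2 gate, 0.90, was 0.75 with equal weight of its parts, 0.82 with markers from 1 UMI, and 0.85 to 0.98 with 1 library left out. The ratio of shares, 1.63, was 1.98 without thinning.

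Values that changed sign were short of the threshold or had no test. Between gates, Slit2 in the Hapln1 gate (0.03) became -0.001929 with RLE normalization, -0.44 with markers from 1 UMI, -0.13 when cells with several markers were assigned by priority and -0.12 with the eighth gate, and ran from -0.034 to 0.15 with 1 library left out. Priority turned the sign of Robo1 in the Cdh5 gate, which had no test, and gave 0.039 for Slit3 in the Myl2-high gate, and the eighth gate, chosen after seeing the data, gave 0.23 for the latter and 0.10 for Robo2 in the Shox2 gate. Slit2 in the Upk3b gate was 0.20 in the wild type alone. Between genotypes, Slit2 in the Cdh5 gate became -0.074 with halved cuts, -0.093 and -0.085 with markers from 1 and 3 UMIs and -0.021 with thinned sums, which also gave -0.013 for Robo1 there and -0.084 for Slit3 in the Crabp1 gate. Doubled cuts gave -0.011 for the latter and 0.63 for Robo1 in the Upk3b gate, which was 0.46 with 3 UMIs and 0.016 with DESeq2. Robo2 in the Hapln1 gate became 0.012 with markers from 1 UMI, and priority gave -0.052 for Robo1 and -0.074 for Slit3 there. Robo4 was 0.14 in cells with Cdh5 and Hapln1. The cause of these shifts was not tested.

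Leaving out 1 library moved the genotype values in the Cdh5 gate from -1.29 to 0.90 for Robo1, -1.86 to 0.46 for Robo4, -0.28 to 0.47 for Slit2 and -1.055 to 1.34 for Slit3. They ran in the Hapln1 gate from -0.14 to 0.17 for Robo1, -0.19 to 0.11 for Robo2, -0.28 to 0.094 for Slit2 and 0.096 to 0.61 for Slit3. In the Crabp1 gate they ran from -0.047 to 1.74 for Robo2, -1.91 to -0.077 for Slit2 and -0.51 to 0.48 for Slit3, and in the Upk3b gate from -0.77 to 1.31 for Robo1, -1.39 to -0.81 for Slit2 and -1.26 to -0.45 for Slit3. The number of genes called between genotypes was unstable. With no filter it was 32, 146, 143 and 44 in the Cdh5, Hapln1, Crabp1 and Upk3b gates, against 0, 4, 0 and 0. It was 95, 173 and 103 in the Cdh5, Hapln1 and Upk3b gates without Ho1, 433, 255 and 18 without Ho2, and 0 in the Hapln1 gate without either Wt library. In the Crabp1 gate it was 5, 32 and 1 without Wt1, Wt2 and Ho2. The Hapln1 gate had 11 with DESeq2 and 1 with markers from 1 UMI, and in the Upk3b gate it lay between 1 and 6 under 6 other alternatives.

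Same-numbered samples did not deviate together over the genes (r from -0.21 in the Crabp1 gate to 0.09 in the Cdh5 gate). With 2 libraries per genotype this cannot exclude a shared litter or day. The main fits used no pairing. With the replicate block the Robo1 value in the Tnnt2 gate was 0.90, Slit3 in the Crabp1 gate was -0.058 and Robo1 in the Upk3b gate was 0.11, and 10, 3 and 14 genes were called in the Hapln1, Crabp1 and Upk3b gates. The crossed block, chosen after seeing the data, called 50, 45 and 9, and gave 0.071 for Slit3 in the Cdh5 gate. Depth limits the Cdh5 and Upk3b gates, which held 6523687 and 4177542 UMIs over the 4 libraries. Fits without 1 library leave 1 in an arm, which is assumed to vary like the others.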

Other observations

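The 31 cells of Wt1 with Slit1 and no gating gene were set beside the 2605 other cells of Wt1 without a gating gene, as a description chosen after the values were seen. The 5 genes other than Slit1 with the largest difference in the share of cells with a UMI were Col26a1 (74.19% against 16.89%), Rrs1, a factor of ribosome assembly (90.32% against 33.32%), Lix1 (80.65% against 25.72%), Pdlim4 (74.19% against 20.31%) and Pcp4, a calmodulin-binding protein (61.29% against 7.601%). The cells with Slit1 were also deeper, with a median of 13890 UMIs against 5187, and the part of depth in these shares was not tested.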
